A study of Homo sapiens with 6 samples.

Results

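The RNA interference machinery was followed through 10 genes in HCT116SCs. They are DROSHA, DGCR8, XPO5, DICER1, TARBP2, the Argonaute genes AGO1, AGO2, AGO3 and AGO4, and TNRC6A. They were chosen by name, with earlier results of these data known. All 10 were found among the 58735 genes of the expression table, and no threshold on their values was set. HCT116SCs are CD44+CD326+ cells sorted from HCT116, an established human colorectal cancer line, and kept in serum-free medium with EGF and bFGF. The control group (NC, 3 libraries) received a negative control siRNA and is given the genotype WT in the labels. The other group (siPSCA, 3 libraries) received siRNA against PSCA, the gene of prostate stem cell antigen, and is labelled as a PSCA knockdown. In both groups the siRNA was delivered with a lipid reagent and RNA was taken 48 h after transfection, so every library comes from cells loaded with a small RNA, and untransfected cells were not analysed here. The sources do not name which of the PSCA siRNA sequences was used for sequencing, the titles of siPSCA 2 and siPSCA 3 carry a different line number after HCT, and nothing states that libraries of a group came from separate cultures. The p-values therefore measure the spread between these libraries, which may be technical.

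RNA interference is the silencing of messenger RNA by small RNAs of about the length of an siRNA. For a cell's own microRNAs (miRNAs), the nuclear Microprocessor, made of the nuclease DROSHA and its RNA-binding partner DGCR8, cuts a hairpin out of the primary transcript. XPO5 carries the hairpin to the cytoplasm, where the nuclease DICER1, with its partner TARBP2, trims it to a duplex. An Argonaute protein keeps one strand as a guide, and a GW182 protein such as TNRC6A joins Argonaute to the enzymes that shorten the poly(A) tail of the target. A transfected siRNA enters this route at the Argonaute step. AGO2 is the Argonaute whose cutting of a matched target underlies siRNA silencing.

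Expression was given as FPKM, reads scaled to the length of a gene's exons in kilobases and to the size of the library. The paper describes paired-end sequencing, so each unit called a read here may be a fragment sequenced from both ends. The NC libraries held 16145977 to 16884838 reads on genes and the siPSCA libraries 16099716 to 17302219, and each of the 10 genes had between 216 and 6831 reads in a library. PSCA itself had 4, 12 and 15 reads in NC 1, NC 2 and NC 3 and 9, 9 and 7 reads in siPSCA 1, siPSCA 2 and siPSCA 3. The groups overlapped (log2 fold change -0.07, standard error 0.12, adjusted p = 0.728 by limma), so PSCA reads do not check the labels, and the groups follow the labels alone. Of the markers of the sorted epithelial cells, CD44 and EPCAM were present in every library (mean FPKM of CD44 82.6 in NC and 60.7 in siPSCA, FPKM of EPCAM 94.7 to 123 in NC and 93.3 to 97.3 in siPSCA). So were KRT8, KRT18, KRT19, CDH1 and CLDN4, with mean FPKM of 178, 129, 311, 30.1 and 35.1 in NC. In siPSCA their means were 208, 116, 370, 19.5 and 58.4. VIL1 was the exception and reached at most 0.0407. The summed FPKM of 14 fibroblast, blood and endothelial markers was 3.88 to 6.30 in NC and 6.60 to 7.09 in siPSCA. Most of it was COL1A1, while LUM and CD3E had no read in any library. Its part in the results was not tested.

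Log2 fold changes are siPSCA minus NC on the log2(FPKM + 1) scale, which understates changes of genes with low FPKM. A call is a Benjamini-Hochberg adjusted p under 0.05 from limma over the 13796 genes whose FPKM averaged 1 or more over the 6 libraries. Of these genes 7001 were called, 50.7% in all, 26.6% higher and 24.2% lower in siPSCA. All 10 genes passed the FPKM minimum, and 7 of them were called. TARBP2, DGCR8 and TNRC6A rose and AGO2, AGO3, AGO4 and DROSHA fell, while AGO1, DICER1 and XPO5 did not pass the test. In 9 of the 10 genes the groups did not overlap, against 64.5% of all tested genes. Read against these shares, counts over 10 genes are not a result about the machinery as a whole. The median log2 fold change was -0.10 over the 10 genes and 0.01 over all tested genes. An exact permutation test over libraries gave p = 0.1, the smallest that 3 libraries against 3 allow, for each of the 10 genes except DICER1 (p = 0.2). In bulk RNA, a change in the number of cells that express a gene and a change in RNA per cell cannot be told apart.

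Fold changes across all genes followed the GC content of their exons (Spearman correlation 0.67 across 13792 genes, which are not independent replicates), and so did the difference of NC 3 from NC 1 and NC 2 (-0.57). Among the 10 genes, TARBP2 and DGCR8 had the highest GC content (56.9% and 56.0%) and AGO3 and DICER1 the lowest (39.1% and 39.8%). Each fold change is therefore also given after a smooth trend on GC content and gene length was removed from every library. With that trend removed, 39.7% of all genes were called, 21.4% higher and 18.2% lower. Of the 10 genes 7 were then called, 5 higher (TARBP2, TNRC6A, DICER1, DGCR8 and XPO5) and 2 lower (AGO2 and AGO3). How much of the trend is technical was not tested.

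**Figure D1:**
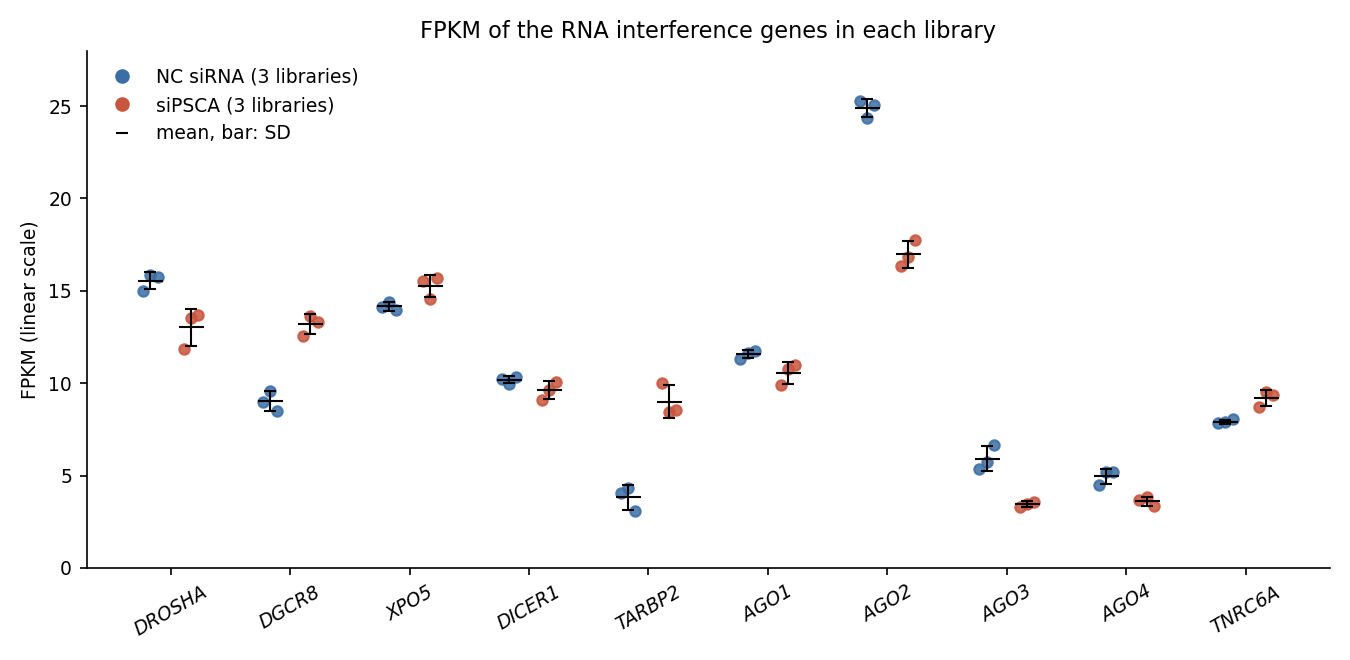
FPKM on a linear axis for each of the 10 genes, with 1 point per library, blue for NC and red for siPSCA, and with the mean and SD of 3 libraries per group. AGO2 lay at 24.3 to 25.3 in NC and 16.4 to 17.8 in siPSCA, and TARBP2 at 3.07 to 4.31 and 8.45 to 10.02.

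FPKM is scaled to exon length but not corrected for GC content, so an order of genes by FPKM is not strictly one of transcript number. In NC this order was AGO2, DROSHA, XPO5, AGO1, DICER1, DGCR8, TNRC6A, AGO3, AGO4 and TARBP2. No neighbours in it had overlapping ranges. AGO2 stood at the 85.7 percentile of tested genes by mean FPKM over the 6 libraries and AGO4 at the 40.1 percentile. In siPSCA the order was AGO2, XPO5, DGCR8, DROSHA, AGO1, DICER1, TNRC6A, TARBP2, AGO4 and AGO3. There DGCR8 and DROSHA, AGO1 and DICER1, DICER1 and TNRC6A, TNRC6A and TARBP2, and AGO4 and AGO3 overlapped in range and so were not separated from their neighbour. TARBP2 was thus the lowest of the 10 genes in all NC libraries, and in siPSCA it lay among genes of middle level. Within groups, the coefficient of variation was 1.49% to 17.3% in NC and 4.06% to 9.70% in siPSCA, with TARBP2 the most variable gene in both. Among the siPSCA libraries, siPSCA 1 had the lowest FPKM in 7 of the 10 genes.

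On log2(FPKM + 1) the Microprocessor genes moved in opposite directions. DROSHA, the nuclease, lies on chromosome 5 (GRCh38, 31400497 to 31532196, minus strand). Its FPKM was 15.0, 15.9 and 15.7 in NC 1, NC 2 and NC 3 and 11.9, 13.5 and 13.7 in siPSCA 1, siPSCA 2 and siPSCA 3. Every siPSCA library lay below every NC library, and siPSCA 1 was the lowest. The log2 fold change was -0.24 (standard error 0.07, 95% interval -0.40 to -0.08, adjusted p = 0.0263 by limma), a fold of 0.838 in mean FPKM. This is a call close to the threshold. It was lost without NC 2 (limma adjusted p = 0.0780), without siPSCA 1 (0.0673), without siPSCA 2 (0.0560) and without an FPKM minimum (0.0549), and with the GC and length trend removed the value was -0.04 (standard error 0.06, adjusted p = 0.640).

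DGCR8, which binds the stem of the hairpin and stabilizes DROSHA, rose. It lies on chromosome 22 (20080232 to 20111877, plus strand). Its FPKM was 9.01, 9.59 and 8.51 in NC and 12.6, 13.6 and 13.3 in siPSCA, in the same library order. The siPSCA libraries were all above the NC libraries, and the gap exceeded the range within either group. DGCR8 rose by a log2 fold change of 0.50 (standard error 0.06, 95% interval 0.35 to 0.65, limma adjusted p = 0.0019) and 0.26 (standard error 0.05, adjusted p = 0.0105) with the GC and length trend removed. Its last exon bases overlap those of TRMT2A, a tRNA methyltransferase gene on the opposite strand, by 12 bases. TRMT2A had 403, 441 and 201 reads in NC and 752, 765 and 717 in siPSCA, and how strand was treated in counting is not given in the sources used here.

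The DGCR8 transcript carries miRNA hairpins in its own exons, and the Microprocessor is known to cut hairpins in DGCR8 messenger RNA. These are shown because a subunit of the Microprocessor and hairpins of this kind are encoded by the same transcript, whose level changed. The mature sequences of the miRNAs that lie there, from RefSeq on GRCh38.p14, are given 5′ to 3′ with the seed (bases 2 to 8, which pair with targets) in capitals. They lie on the plus strand at chr22:20085797-20085818, chr22:20086072-20086093 and chr22:20086112-20086129.
hsa-miR-3618: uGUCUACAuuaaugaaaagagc
hsa-miR-1306-5p: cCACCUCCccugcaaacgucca
hsa-miR-1306-3p: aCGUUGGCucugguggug
No seed was shared among them. The rows of MIR3618 and MIR1306 had 0 reads in all 6 libraries. Their hairpins lie wholly inside exons of DGCR8, and how the counting assigned reads that lie in both genes is not given in the sources used here, so this 0 does not measure the mature miRNAs.

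With DROSHA lower and DGCR8 higher on log2(FPKM + 1), their ratio changed. The log2 ratio of DROSHA to DGCR8 FPKM was 0.74, 0.73 and 0.89 in NC and -0.09, -0.01 and 0.04 in siPSCA. On the linear scale NC gave 1.72 ± 0.109 (SD, n = 3) and siPSCA 0.987 ± 0.0430 (SD, n = 3). By FPKM, which is not corrected for GC content, DROSHA exceeded DGCR8 in every NC library and was level with it in siPSCA. The difference of the log2 ratios was -0.80, with no overlap of the groups (exact permutation p = 0.1, 2-sided, the smallest possible, and 0.1 after adjustment over the 3 ratios and shares tested). With the GC and length trend removed the difference was -0.32. In that fit DGCR8 rose by 0.26, whereas DROSHA, at -0.04, was not called, so a fall of DROSHA depends on the correction. Transcript levels do not give the amounts of the proteins.

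XPO5, the export receptor of the hairpins, did not pass the test. It lies on chromosome 6 (43522330 to 43576075, minus strand), and 4.08% of its exon bases are shared with POLR1C on the opposite strand. Its FPKM was 14.1, 14.4 and 13.9 in NC and 15.6, 14.6 and 15.7 in siPSCA. The groups did not overlap, yet siPSCA 2 lay close to NC 2. The log2 fold change of 0.10 (standard error 0.05, 95% interval -0.02 to 0.22) had a limma adjusted p of 0.137. With the GC and length trend removed it was 0.17 (standard error 0.05, adjusted p = 0.0289), the only one of 16 other fits in which XPO5 was called.

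DICER1, the nuclease that makes the small RNA duplex, was the one gene whose groups overlapped. It lies on chromosome 14 (95086228 to 95158010, minus strand), and the miRNA gene MIR3173 lies in one of its introns. Its FPKM was 10.2, 9.98 and 10.3 in NC and 9.11, 9.64 and 10.1 in siPSCA. Only siPSCA 3 reached the NC range. The log2 fold change was -0.08 (standard error 0.05, 95% interval -0.21 to 0.06, limma adjusted p = 0.278) but 0.29 (standard error 0.04, adjusted p = 0.0037) with the GC and length trend removed. The sign of DICER1 therefore depends on that correction, and no direction is given for it.

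TARBP2 showed the largest change of the 10 genes. It encodes the double-stranded RNA-binding partner of DICER1, which takes part in loading small RNAs onto Argonaute and also binds the RNA-activated kinase encoded by EIF2AK2. It lies on chromosome 12 (53500921 to 53506431, plus strand). Its FPKM was 4.07, 4.31 and 3.07 in NC and 10.02, 8.45 and 8.56 in siPSCA, from 280, 307 and 216 reads and 693, 614 and 638 reads. NC 3 was the lowest and siPSCA 1 the highest, and the lowest siPSCA library lay well above the highest NC library. Mean FPKM went from 3.82 ± 0.661 (SD, n = 3) with NC to 9.01 ± 0.874 (SD, n = 3) with siPSCA, a fold of 2.36. On the log2 scale TARBP2 rose by 1.06 (standard error 0.12, 95% interval 0.77 to 1.35, adjusted p = 0.0016 by limma), and 0.72 (standard error 0.07, adjusted p = 0.000948) with the GC and length trend removed. Over 16 other fits TARBP2 was called in 16, with log2 fold changes between 0.72 and 1.25. The ratio of TARBP2 to DICER1 FPKM went from 0.375 ± 0.0705 (SD, n = 3) to 0.941 ± 0.138 (SD, n = 3).

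The start of TARBP2 is shared with an antisense gene, AC023509.4, on the opposite strand. Their exons overlap by 16 bases, and AC023509.4 had 9, 10 and 10 reads in NC and 22, 19 and 15 in siPSCA. Both genes thus had more reads in every siPSCA library than in any NC library. The window around the first TARBP2 start is shown because it holds the overlapping starts of these divergent genes. It is the RefSeq sequence on GRCh38.p14 at chr12:53500673-53500972, plus strand, from 250 bases before to 50 bases after the annotated start, 5′ to 3′, with the 16 shared bases in capitals.
TARBP2 promoter: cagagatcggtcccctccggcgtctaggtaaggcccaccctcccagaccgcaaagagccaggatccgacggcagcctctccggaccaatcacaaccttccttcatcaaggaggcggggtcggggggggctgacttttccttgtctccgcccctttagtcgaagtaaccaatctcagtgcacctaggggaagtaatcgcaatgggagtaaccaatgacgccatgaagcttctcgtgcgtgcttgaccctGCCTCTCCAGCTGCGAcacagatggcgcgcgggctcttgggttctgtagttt
On both strands it holds CCAAT 3 times and GGGCGG 1 time and no TATAAA. Of 35116 RefSeq promoter windows of this length, 34.6% held CCAAT, 45.0% held GGGCGG and 11.5% held TATAAA. The window has 19 CpG pairs, against a median of 14 over all windows. AGO2 was left out of this search. The other 9 genes had 15 such windows, of which 8 held CCAAT, 11 held GGGCGG and 0 held TATAAA, and their median CpG count was 29. These matches describe the letters of the windows only.

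Of the Argonaute genes, AGO2, AGO3 and AGO4 fell, AGO2 by the most FPKM. AGO2 encodes the catalytic Argonaute and lies on chromosome 8 (140520156 to 140635619, minus strand). Its FPKM was 25.3, 24.3 and 25.0 in NC 1, NC 2 and NC 3 and 16.4, 16.8 and 17.8 in siPSCA 1, siPSCA 2 and siPSCA 3. Both groups were tight, and the gap between them was wider than the range within either. Mean FPKM was 24.9 ± 0.491 (SD, n = 3) and 17.0 ± 0.723 (SD, n = 3), a fold of 0.682. AGO2 changed by -0.53 on the log2 scale (standard error 0.05, 95% interval -0.65 to -0.40, limma adjusted p = 0.0010) and -0.39 (standard error 0.04, adjusted p = 0.0011) with the GC and length trend removed. AGO2 was called in 16 of 16 other fits, between -0.59 and -0.39.

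AGO4, AGO1 and AGO3 are neighbours on the plus strand of chromosome 1 (35808172 to 35857890, 35869808 to 35930528 and 35930718 to 36072500). They did not share one level or one change. AGO1, the best expressed of the 3, had an FPKM of 11.3, 11.6 and 11.7 in NC and 9.90, 10.8 and 11.0 in siPSCA. The groups were separate but close, and AGO1 did not pass the test (log2 fold change -0.12, standard error 0.06, 95% interval -0.26 to 0.01, limma adjusted p = 0.114). With the GC and length trend removed the AGO1 value was 0.02, and AGO1 was called in 0 of 16 other fits.

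AGO3, a paralog with little known cutting activity, had an FPKM of 5.33, 5.74 and 6.66 in NC and 3.30, 3.47 and 3.59 in siPSCA. NC 3 was the highest, and the siPSCA libraries lay close together below all NC libraries. AGO3 fell by 0.63 on the log2 scale (standard error 0.08, 95% interval -0.83 to -0.43, limma adjusted p = 0.0024), the largest fall of the 10 genes on this scale, with a fold of 0.584. With the GC and length trend removed the fall was smaller, at -0.23 (standard error 0.06, adjusted p = 0.0209), so that AGO2 and not AGO3 then fell most. That fit with the replicate number as a block in addition gave an adjusted p of 0.0544 by limma.

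AGO4, an Argonaute without cutting activity, had an FPKM of 4.48, 5.19 and 5.19 in NC and 3.66, 3.83 and 3.35 in siPSCA. All siPSCA libraries lay below NC 1, the lowest of the controls. For AGO4 the log2 fold change was -0.37 (standard error 0.08, 95% interval -0.56 to -0.18, limma adjusted p = 0.0102). After removal of the GC and length trend it was -0.18 (standard error 0.07) and did not pass the test (limma adjusted p = 0.0903). Few stretches of sequence were shared between the Argonaute paralogs. Among 31-base words of their exons, AGO1 and AGO3 had 2 in common, AGO3 and AGO4 had 13, and the other 4 pairs had 0, whereas 6.71% of the words of AGO3 occur in some other gene.

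**Figure D2:**
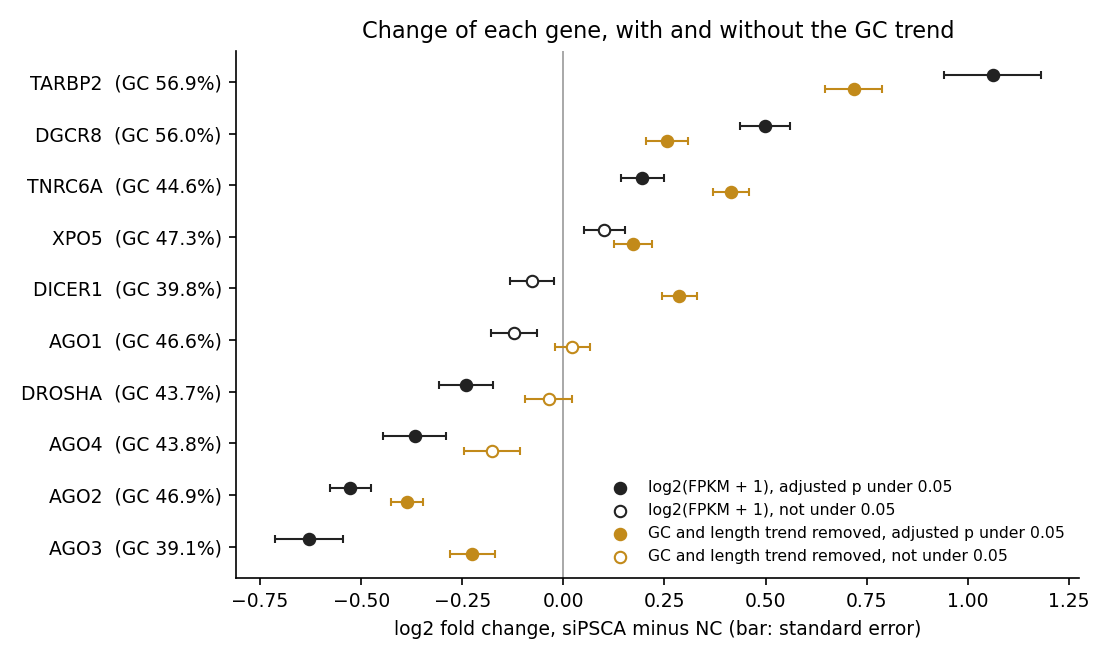
Log2 fold change (siPSCA minus NC) with its standard error for each gene, black on log2(FPKM + 1) and gold with the GC and length trend removed, filled where the limma adjusted p was under 0.05. TARBP2 and DGCR8 stayed above 0 and AGO2 and AGO3 below 0 in both, whereas DICER1 and AGO1 changed sign.

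Summed over the 4 Argonaute genes, FPKM was 46.4, 46.9 and 48.6 in NC and 33.2, 34.9 and 35.7 in siPSCA. AGO2 made up 54.5%, 51.9% and 51.5% of it in NC and 49.2%, 48.2% and 49.8% in siPSCA. AGO2 was thus the main Argonaute transcript in every library, with a somewhat smaller share in siPSCA (difference of -3.55 percentage points, no overlap, exact permutation p = 0.1, the smallest possible). After removal of the GC and length trend the difference was -5.35 points. The share of AGO1, the Argonaute that did not pass the test, was 24.1% to 24.8% in NC and 29.8% to 30.9% in siPSCA. AGO3 made up 12.5% ± 1.12 (SD, n = 3) and 9.98% ± 0.0637 (SD, n = 3), and AGO4 10.5% ± 0.733 (SD, n = 3) and 10.5% ± 0.938 (SD, n = 3).

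TNRC6A, the GW182 protein gene among the 10, rose by a small amount. It lies on chromosome 16 (24610209 to 24827632, plus strand). Its FPKM was 7.82, 7.87 and 8.04 in NC and 8.71, 9.53 and 9.38 in siPSCA. The NC libraries were nearly level and all siPSCA libraries lay above them. The log2 fold change was 0.20 (standard error 0.05, 95% interval 0.07 to 0.33, limma adjusted p = 0.0249) and 0.41 (standard error 0.04, adjusted p = 0.0012) with the GC and length trend removed. On log2(FPKM + 1) the call was lost without NC 1 (limma adjusted p = 0.0618), NC 2 (0.0709), siPSCA 2 (0.0984) or siPSCA 3 (0.0816), and with TPM in place of FPKM (0.0940).

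Of its paralogs, TNRC6C rose as TNRC6A did and TNRC6B did not. TNRC6B fell (log2 fold change -0.24, standard error 0.07, limma adjusted p = 0.0361), a call that was absent with the GC and length trend removed (-0.01, adjusted p = 0.919), and TNRC6C rose (0.41, standard error 0.05, adjusted p = 0.0024, and 0.40, adjusted p = 0.0015, with the trend removed). Summed FPKM of the 3 genes averaged 20.7 ± 0.849 (SD, n = 3) for NC and 22.3 ± 1.11 (SD, n = 3) for siPSCA. The share of TNRC6A was 38.7%, 39.0% and 37.1% in NC and 41.4%, 41.5% and 40.8% in siPSCA. It was higher in every siPSCA library, by 2.95 percentage points on average (exact permutation p = 0.1, the smallest possible), and by 4.51 with the GC and length trend removed. TNRC6B held 39.3% to 41.7% in NC and 30.4% to 32.0% in siPSCA, so the gene with the largest share was TNRC6B in NC and TNRC6A in siPSCA.

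**Figure D3:**
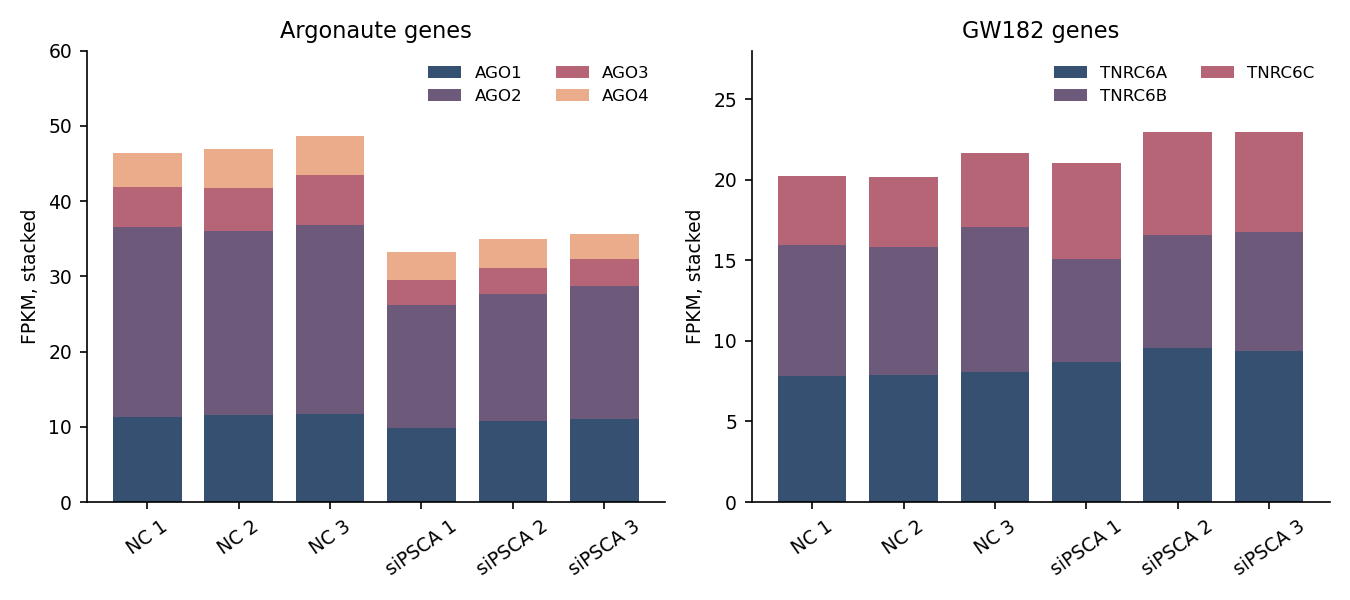
Stacked FPKM of the 4 Argonaute genes (left) and the 3 GW182 genes (right) in each library, on linear axes from 0. The Argonaute bars reach 46.4 to 48.6 in NC and 33.2 to 35.7 in siPSCA, while the GW182 bars average 20.7 and 22.3.

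The genes that work beside these 10 were followed as lists, to be read against the 26.6% of all tested genes that rose and the 24.2% that fell (21.4% and 18.2% with the GC and length trend removed). Of 15 Microprocessor cofactors and nuclear export genes, all tested, 3 rose and 3 fell, and the median log2 fold change was 0.06. KHSRP, which promotes the processing of some miRNA precursors, rose (0.65, limma adjusted p = 0.0037), as did SRRT, a link between the cap-binding complex and primary miRNAs (0.55), and DDX5, a helicase of the Microprocessor (0.14). NCBP2, of the cap-binding complex, fell (-0.52), as did DDX17, the paralog of DDX5 (-0.25), and NCBP1 (-0.17). After removal of the GC and length trend 7 rose and 1, NCBP2, fell, with a median of 0.17, and the falls of DDX17 (-0.03) and NCBP1 (0.06) were no longer called.

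Of 18 genes of RISC loading and its chaperones (RISC is the complex of Argonaute and its guide), 17 were tested, 3 rose and 3 fell, with a median of -0.04. PRKRA, the paralog partner of TARBP2 in the DICER1 complex, fell while TARBP2 rose. Its mean FPKM went from 17.6 ± 0.979 (SD, n = 3) to 12.6 ± 0.113 (SD, n = 3), and its log2 fold change was -0.45 (standard error 0.05, limma adjusted p = 0.0019) and also -0.45 with the GC and length trend removed. HSP90AA1, a chaperone that holds Argonaute open for loading, fell (-0.32), as did IPO8, an importin that binds Argonaute (-0.18). The co-chaperones DNAJB1 (0.66) and FKBP4 (0.36) and the Argonaute-binding LIM protein gene AJUBA (0.30) rose. With that trend removed 3 rose (DNAJB1, TSN and DNAJA2) and 3 fell (PRKRA, HSP90AA1 and SND1), with a median of 0.11 and values of 0.34 for DNAJB1 and -0.28 for HSP90AA1. FKBP4 (0.18) and AJUBA (0.16) were then not called, and IPO8 changed sign (0.09, limma adjusted p = 0.0966). The count of this list varied most, with 10 called without NC 3, 2 without siPSCA 1, and 3 without NC 2, siPSCA 2 or siPSCA 3. The share of all genes called in those fits is not given, so this is not read as a trait of the list.

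Downstream of Argonaute, 26 genes of the other GW182 proteins, deadenylation and decapping were tested, of which 6 rose and 13 fell, with a median of -0.21. XRN1, the exonuclease that degrades decapped messenger RNA, fell most (-0.72, limma adjusted p = 0.0014), followed by CNOT6L, a deadenylase (-0.66), and PABPC1, the main poly(A)-binding protein (-0.54). EDC3 (0.59) and EDC4 (0.52), scaffolds of the decapping complex, and TNRC6C (0.41) rose. After removal of the GC and length trend 6 rose and 6 fell, with a median of -0.04. XRN1 (-0.32), CNOT6L (-0.28), PABPC1 (-0.54), EDC3 (0.41) and TNRC6C (0.40) were then still called, whereas EDC4 (0.12, limma adjusted p = 0.0841) was not.

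Of 13 genes of miRNA tailing, editing and turnover, 10 were tested, 2 rose and 4 fell, with a median of -0.07. The uridylyltransferases TUT7 (-0.61, limma adjusted p = 0.0034) and TUT4 (-0.59) fell, as did TENT2, a nucleotidyltransferase that adds to the ends of miRNAs (-0.42). ZSWIM8, which takes part in target-directed miRNA decay (0.45), and DIS3L2, an exonuclease of uridylated RNA (0.31), rose. Without the GC and length trend 0 rose and 3 fell, with a median of -0.07. TUT7 (-0.33) was still called, whereas TUT4 (-0.20), TENT2 (-0.11), ZSWIM8 (0.09) and DIS3L2 (0.20) were not. LIN28A, LIN28B and TRIM71 lay below the FPKM minimum, with at most 7 reads in a library.

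The PIWI genes, a germline branch of the Argonaute family, were at the edge of detection. PIWIL1 had no read in any library, PIWIL3 had 1 read in siPSCA 3 and 0 in the other libraries, and none of the 4 genes reached the FPKM minimum. PIWIL2 had 27, 24 and 25 reads in NC and 6, 1 and 10 in siPSCA. PIWIL4 had 23, 32 and 30 reads in NC and 10, 12 and 8 in siPSCA. In both, every siPSCA library lay below every NC library, and both were called in the model without an FPKM minimum (limma adjusted p = 0.0193 and 0.0268), where 16.3% of 34391 genes were called.

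**Figure D4:**
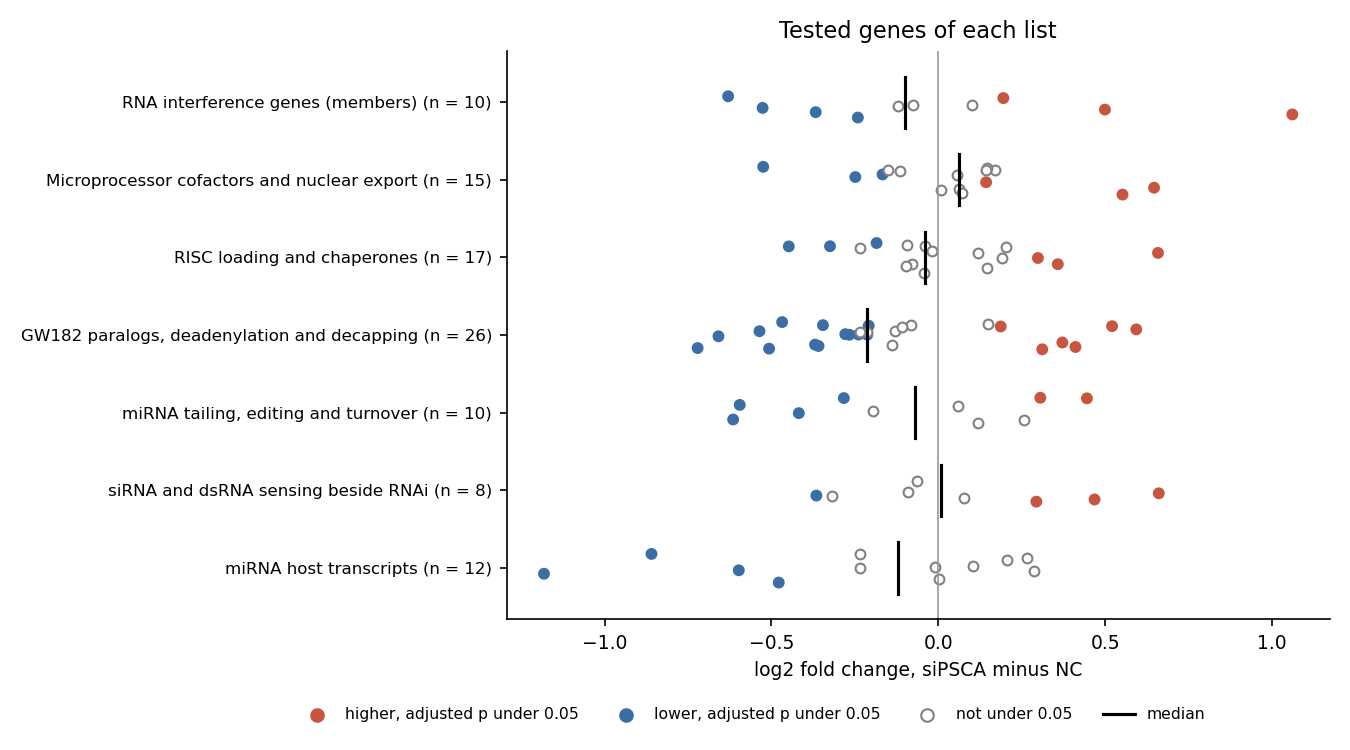
Log2 fold change (siPSCA minus NC) of every tested gene in each list, with a bar at the list's median, red for higher and blue for lower at a limma adjusted p under 0.05 and open for the rest. The GW182, deadenylation and decapping list has 13 blue and 6 red points of 26, and its median lies at -0.21.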

How the data were processed

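RNA of HCT116SCs was sequenced in 6 libraries, 3 per group, and grouped by the labels. The authors deposited FPKM values per gene. GRCh38 is named in the submitters' processing notes, and the aligner, the counting program and the strand setting are not given in the sources used here. Positions and exon lengths in the table matched GENCODE release 29 for 58735 of 58735 genes. FPKM times length was a whole multiple of one read's step (within 0.01 read) for 100% of values, so reads were recovered from library totals of 16803235 to 18218661, and one read on 1 kilobase gave an FPKM of 0.0549 to 0.0595. Read numbers carry counting error as well as differences between libraries.

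FPKM were analysed with limma 3.58.1 in R 4.3.3 (lmFit, then eBayes with trend, 2-sided) as log2(FPKM + 1), group being the only term, for genes with a mean of at least 1. P-values were adjusted over all 13796 genes. The paper names no test for single genes. GC content and length were removed as a spline with 4 degrees of freedom per library. Shares and ratios were tested by exact permutation. The fit was also run on simulated counts that held no GC trend, which does not check the calls in these data. Python 3.11.15, pandas 2.3.3, numpy 2.4.6, scipy 1.17.1 and matplotlib 3.10.9 were also used.

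The genes and lists were chosen with earlier results of these data known. Named were all 10 genes, PSCA, up to 3 called genes with the largest change per direction and list, list genes whose role was needed, overlapping genes, and the 3 protein-coding genes nearest in profile to the called gene with the smallest adjusted p in each direction. Promoter and miRNA sequences were matched by symbol in RefSeq tables.

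The 16 other fits were a pseudocount of 0.1, a minimum FPKM of 5 and none, TPM, median-of-ratios scaling, no mean-variance trend, limma-voom on recovered reads, removal of the GC and length trend, a replicate block, both together, and leaving out each library.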

Additional observations from a re-analysis of the deposited data

How the results depend on the processing

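TARBP2, DGCR8 and AGO2 were called in 16 of 16 other fits, AGO3 in 14 of 15, AGO4 in 13 of 15, TNRC6A in 11 and DROSHA in 10. With the GC and length trend removed, alone or with the replicate block, AGO1 (0.022) and DICER1 (0.29) changed sign. With the trend removed, the GW182 list had 12 calls and the tailing list 3, and the differences in AGO2 share, DROSHA to DGCR8 ratio and TNRC6A share were -5.35, -0.32 and 4.51, while the trend's removal together with the replicate block gave 9 calls in the GW182 list and 2 each in the tailing, double-stranded RNA and host lists. Without an FPKM minimum the RISC loading and tailing lists had 3 calls each, and at a minimum of 5 the host list had 2 of 2 tested. Leaving out one library gave 5 to 7 calls among the 10 genes, 4 to 9 in the Microprocessor list, 2 to 10 in RISC loading, 13 to 20 in the GW182 list, 3 to 8 in tailing, 2 to 4 in the double-stranded RNA list and 4 to 5 in the host list. It gave -4.11 to -2.63 points for the AGO2 share, -0.83 to -0.75 for the ratio and 2.38 to 3.34 points for the TNRC6A share. The low ends of the tailing and double-stranded RNA lists came without siPSCA 1. Without NC 3 the Microprocessor list had 9 calls. Samples share only a replicate number: deviations of same-numbered libraries correlated at 0.0955, 0.0132 and 0.134. Those of differently numbered libraries correlated at -0.131 to 0.0417. These values do not settle whether the libraries were paired. With the replicate block alone, 7 of the 10 genes were called (3 higher, 4 lower), the lists had 4, 6, 19, 5, 4 and 4 calls, and the paired permutation p of the shares and the ratio was 0.25, the smallest possible. For the fits that left out a library, used the replicate block or set a minimum of 5, shares over all genes are not given. Shifts in these counts are therefore not read as traits of the 10 genes or of a list, and the cause of the shifts was not tested. The 10 genes had 216 to 6831 reads per library, whereas the PIWI genes, with at most 32, lie where counting error is large.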

Other observations

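Receptors of double-stranded RNA meet the same transfected molecules as the RNA interference machinery. Of 9 such genes 8 were tested, 3 rose and 1 fell, with a median log2 fold change of 0.01. OAS1, whose product makes the activator of RNase L when it binds double-stranded RNA, had an FPKM of 4.26, 5.13 and 4.58 in NC and 7.74, 7.996 and 8.03 in siPSCA. Its groups did not overlap, and its log2 fold change was 0.66 both as given and with the GC and length trend removed (limma adjusted p = 0.0014 and 0.000948). OAS3 rose (0.47, limma adjusted p = 0.0012), as did DHX58, a regulator of the RNA sensors (0.29, adjusted p = 0.0421), whose value was -0.03 with the trend removed. EIF2AK2, the kinase that TARBP2 binds, fell (-0.37, limma adjusted p = 0.0141), but not with the trend removed (0.01, adjusted p = 0.941). The sensor genes DDX58 (-0.32, limma adjusted p = 0.0776), IFIH1 (-0.09, 0.338) and TLR3 (-0.06, 0.628) did not pass the test. With the trend removed 4 of the list rose and 0 fell, where 21.4% of all genes rose and 18.2% fell.

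Mature miRNAs were not measured. Host transcripts of miRNAs were taken by name, as symbols that start with MIR and end in HG, plus DLEU2. Hosts with other names, such as DGCR8, which rose, and DICER1, are not among them. Of these 63 host transcripts, 12 passed the FPKM minimum and 28 had no read in any library. Of the 12, 0 rose and 4 fell, with a median of -0.12, where 26.6% of all tested genes rose and 24.2% fell. MIR210HG, the host of the hypoxia-induced miR-210, had an FPKM of 5.00, 4.82 and 2.43 in NC and 1.22, 1.24 and 1.06 in siPSCA. NC 3 lay apart from the other controls yet above all siPSCA libraries (log2 fold change -1.18, standard error 0.22, limma adjusted p = 0.0068). MIR100HG (-0.86), MIR222HG (-0.60) and MIR4453HG (-0.48) also fell, and with the trend removed all but MIR222HG were still called. MIR17HG, the host of the miR-17 cluster, did not pass the test (0.00, limma adjusted p = 0.989), nor did MIR22HG (0.27, adjusted p = 0.168). Levels of host transcripts do not give those of the miRNAs.

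Over the 6 libraries, the profiles nearest to that of TARBP2 among 11078 protein-coding genes were those of BST2, MAP2K3 and FPGS, with a root mean square difference of centred log2(FPKM + 1) of 0.0382, 0.0395 and 0.0520. Nearest to AGO2 were SPCS3, SUN1 and TANK, at 0.0251, 0.0255 and 0.0260. The likeness is a description of these libraries.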
